A study of Mus musculus with 56 samples.

Results

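The 10 genes described here make and desaturate fatty acids in the liver or control that pathway. They are *Acly*, *Acaca*, *Acacb*, *Fasn*, *Scd1*, *Elovl5*, *Elovl6*, *Me1*, *Thrsp* and *Srebf1*, a list of pathway genes chosen by name. Earlier results of these data were known when the list was chosen. Each of the 10 was found as 1 gene, so that 10 of the 52230 genes in the files are described. Reads were summed over the transcripts of a gene. All 10 passed the filter on low counts in every comparison. The livers came from male P446L mice, of the GCKR-P446L-EMI-B6N line, in which GKRP, a regulatory protein of glucokinase, has residue 446 either as proline (446P) or as leucine (446L). GKRP holds glucokinase (GK) in the hepatocyte nucleus. PP mice were homozygous for 446P, LL mice were homozygous for 446L, and PL mice carried 1 copy of each. All mice, the PP controls included, ate food with 45% of its energy as fat and drank water with 10% glucose and 5% fructose for 20 weeks, to an age of 28 weeks, a regimen named high-fat high-sugar diet (HFHSD). There were 10 PP, 8 PL and 10 LL mice without drug, and 10 PP, 8 PL and 10 LL mice with a glucokinase activator (GKA, 3 mg/kg). PP mouse 7 was left out, so that 9 PP mice without GKA and 55 mice in all were compared. The variant is present in the whole animal, so that liver and other organs carry it alike, and no group on another diet was analysed here. The route and length of the GKA treatment and the time of day at which livers were taken were not given in the sources used here. For the HFHSD the paper describes blood glucose at cull as post-prandial, after a short withdrawal of food.

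De novo lipogenesis turns sugar carbon into fat. Citrate leaves the mitochondrion and is cleaved to acetyl-CoA, acetyl-CoA is carboxylated to malonyl-CoA, fatty acid synthase builds palmitate from both with NADPH, and elongases and desaturases then lengthen and unsaturate the product. In the liver the pathway is high in the fed state, when insulin acts through the transcription factor SREBP1 (encoded by *Srebf1*) and glucose acts through ChREBP.

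Each liver gave between 5189852 and 8093368 estimated reads in genes (median 6555851). Hepatocyte markers were high in every mouse, with 84000 to 137000 CPM (reads scaled to a common library size) summed over the 7 of 8 listed markers that were matched. *Adipoq* and *Lep*, defining markers of the fat cell, which also makes fatty acids, were at 0 in all 55 mice, and the 7 adipose markers summed to between 3.33 and 21.4 CPM. Pancreas and skeletal muscle markers summed to at most 0.794 CPM. The 5 blood markers summed to between 287 and 2960 CPM and the 6 macrophage markers to between 52.5 and 342 CPM. In whole liver, fewer cells of a type and less RNA per cell cannot be told apart. *Gckr*, the gene that carries the variant, ranged from 151.8 to 231.8 CPM in PP and from 130.4 to 192.8 CPM in LL without GKA. Counts per gene do not show which allele a mouse carried.

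The genes spanned a wide range of levels. *Scd1*, the delta-9 desaturase that makes oleate and palmitoleate, alone took a median of 1.94% of all reads in a liver (0.452% to 4.78%). Per kilobase of the most-read transcript, *Scd1* had a median level of 4050 CPM per kb, followed by *Thrsp* (Spot 14, a lipogenic nuclear protein) at 339 and *Elovl5*, an elongase of polyunsaturated and some monounsaturated fatty acids, at 334. *Me1*, cytosolic malic enzyme and a source of NADPH, had 97.8 CPM per kb. *Acly*, ATP citrate lyase, had 94.2 and *Fasn*, fatty acid synthase, 84.8. These 3 levels lay within the spread between mice of each other, as did those of *Thrsp* and *Elovl5*. *Srebf1* had 46.7 CPM per kb and *Elovl6*, which lengthens palmitate to stearate, 21.6. The acetyl-CoA carboxylases were lowest, with 17.8 CPM per kb for *Acaca*, the cytosolic form, and 9.66 for *Acacb*, the form at the mitochondrial surface whose malonyl-CoA restrains fatty acid oxidation. The range of *Elovl6* (7.33 to 93) held that of *Acaca* (9.04 to 56.7) whole, so that these neighbours in the order did not separate either.

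**Figure D1:**
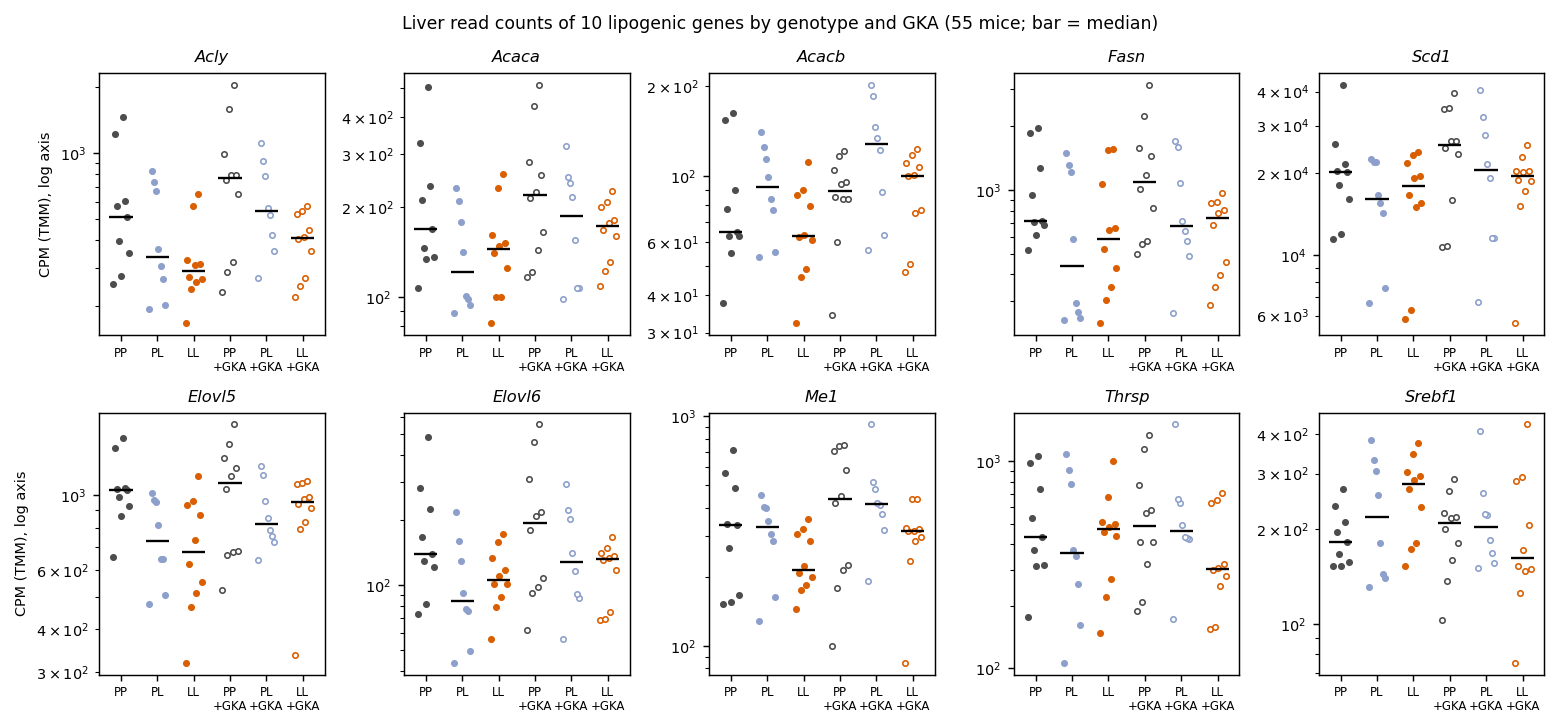
Level of each of the 10 genes in CPM (log axis) by genotype and GKA, with 1 dot per mouse (filled without GKA, open with GKA) and a bar at the group median. The groups compared overlap in every panel, and the top dots of PP and PP + GKA in *Acly*, *Fasn* and *Elovl6* stand above every LL mouse of the same treatment.

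The enzymes that supply acetyl-CoA and malonyl-CoA were taken first. Without GKA, *Acly* was between 252 and 1467 CPM in the 9 PP mice (median 508.6), between 195.1 and 825.2 CPM in the 8 PL mice (median 335.2) and between 167 and 650.2 CPM in the 10 LL mice (median 290.6). With GKA the range was 233.1 to 2041 CPM in PP (median 772), 268.6 to 1117 CPM in PL (median 541.1) and 219.8 to 575.1 CPM in LL (median 409.7). In these groups 8 of 10 LL mice without GKA and 10 of 10 with GKA lay below the PP median of the same treatment, while 2 of 9 PP mice without GKA and 7 of 10 with GKA lay above every LL mouse. *Acaca* had medians of 169 CPM in PP (107.3 to 503.3), 121.4 in PL (88.08 to 231.4) and 144.2 in LL (81.63 to 258). With GKA they were 218.9 CPM in PP (116.7 to 511.5), 186.1 in PL (98.23 to 319.7) and 172.4 in LL (108.8 to 226.4). PP mice reached further up for *Acaca*, with 4 of 10 above every LL mouse with GKA. *Acacb* did not follow this order. Its medians were 64.94 CPM in PP (37.57 to 162.4), 91.74 in PL (53.75 to 140.4) and 63.01 in LL (32.23 to 111.5), and with GKA 89.36 CPM in PP (34.3 to 121.1), 127.8 in PL (56.49 to 200.9) and 100 in LL (47.99 to 122.6). PL mice had the highest *Acacb* median in both treatments, and with GKA 5 of 8 of them lay above every PP mouse.

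Fatty acid synthase and the enzymes that modify its product came next. *Fasn* had medians of 716.2 CPM in PP (519.1 to 1960), 438.7 in PL (244.4 to 1499) and 587.7 in LL (235.1 to 1555) without GKA. With GKA the medians were 1094 CPM in PP (498.9 to 3129), 679.5 in PL (262.1 to 1705) and 735.3 in LL (287.1 to 972.3). All 10 LL mice with GKA lay below the PP + GKA median of *Fasn*, and 6 of 10 PP + GKA mice lay above every one of them. *Scd1* had medians of 20170 CPM in PP (11480 to 42270), 16130 in PL (6684 to 22540) and 17930 in LL (5821 to 23960), and with GKA of 25510 in PP (10760 to 39690), 20530 in PL (6732 to 40690) and 19540 in LL (5622 to 25360). Here too all 10 LL + GKA mice lay below the PP + GKA median. *Elovl6* had medians of 138.7 CPM in PP (73.55 to 482.5), 84.47 in PL (43.61 to 217.6) and 105.7 in LL (56.12 to 171.3), and with GKA of 194 in PP (62.06 to 553.3), 127.9 in PL (55.95 to 294.5) and 131.6 in LL (69.07 to 166.1). Of the PP mice, 3 of 9 without GKA and 6 of 10 with GKA were above every LL mouse. *Elovl5* was the least spread of the enzymes, with medians of 1034 CPM in PP (655 to 1471), 730.9 in PL (474.8 to 1010) and 678.6 in LL (319.1 to 1132). Without GKA 5 of 10 LL and 4 of 8 PL mice lay below every PP mouse. With GKA the *Elovl5* medians were nearer, at 1086 CPM in PP (521.6 to 1613), 820.8 in PL (641.6 to 1214) and 954.3 in LL (336.4 to 1099).

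*Me1*, the NADPH source, had medians of 335.6 CPM in PP (152.7 to 714.6), 329.5 in PL (128 to 456.1) and 215 in LL (145.2 to 358.8), and with GKA of 435.1 in PP (100.1 to 749.9), 415.1 in PL (191.1 to 921.2) and 317.1 in LL (84.76 to 437.2). In both treatments 9 of 10 LL mice lay below the PP median. *Thrsp* had medians of 432.3 CPM in PP (176.1 to 1064), 360.8 in PL (106.4 to 1090) and 469 in LL (147.7 to 1008), and with GKA of 486.1 in PP (189.3 to 1336), 462 in PL (173.4 to 1511) and 302.7 in LL (154 to 703.5). *Thrsp* was thus the most spread of the genes, with a within-group SD of 0.911 on the log2 scale against 0.471 for *Elovl5*. Without GKA 7 of 10 LL mice lay above the PP median of *Thrsp*, though its mean was lower in LL (470.3 CPM against 547 in PP). *Srebf1*, the regulator, was higher in LL than in PP without GKA in both median and mean (261.5 CPM against 191.2). It had a median of 181.3 CPM in PP (152.3 to 268.1), 218.6 in PL (130.5 to 384.6) and 277.2 in LL (152.9 to 374.5), and 5 of 10 LL mice lay above every PP mouse. With GKA its medians were 208.4 CPM in PP (102.5 to 288.9), 203 in PL (150.8 to 409.9) and 162 in LL (75.27 to 429.6), with 7 of 10 LL mice below the PP median.

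The comparison of LL with PP asks whether the variant changes the lipogenic genes on the HFHSD. Without GKA, 9 of the 10 genes had a lower mean in LL and *Srebf1* a higher one, but none of the 10 was a differentially expressed gene (DEG, Benjamini-Hochberg adjusted p below 0.05 in edgeR's quasi-likelihood test and a ratio of 1.3 or more, or of 0.7 or less). In this comparison 0.0854% of the 10537 genes tested were DEGs. At an unadjusted p below 0.05 there were 3 lower genes of 10, against 5.69% of all genes, and 1 higher, against 6.15%. The log2 fold changes of these were -0.89 (SE 0.32) for *Acly*, -0.75 (SE 0.29) for *Elovl6*, -0.55 (SE 0.20) for *Elovl5* and 0.46 (SE 0.16) for *Srebf1*, with edgeR adjusted p-values of 0.246, 0.295, 0.246 and 0.242. The others ran from -0.55 (*Me1*) to -0.21 (*Thrsp*). The median log2 fold change of the 10 genes was -0.52, against 0.01 over all genes tested. DESeq2 also gave 0 DEGs among the 10, with 6 at an unadjusted p below 0.05, while it gave 109 DEGs in all against 9 by edgeR. The share of all genes at that unadjusted level was not taken for DESeq2 in any comparison. Its counts at that level therefore have no background to be read against.

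With GKA the same comparison gave 0 DEGs among the 10 genes by edgeR and by DESeq2, with 0.239% of all genes being DEGs by edgeR. By either tool 4 of the 10 had an unadjusted p below 0.05, in edgeR all lower in LL, against 5.11% of all genes that were lower at that level. *Acly* had a log2 fold change of -1.07 (SE 0.32, edgeR adjusted p 0.195), *Fasn* of -1.0 (SE 0.32, 0.216), *Elovl6* of -0.94 (SE 0.33, 0.276) and *Acaca* of -0.55 (SE 0.24, 0.413). *Srebf1* (0.03, SE 0.24) and *Acacb* (0.05, SE 0.20) were near 0. The median of the 10 was -0.53, against 0.00 for all genes. The LL mice with GKA and the LL mice without GKA are different animals, but the edgeR interaction of GKA with LL genotype was a DEG for 0 of the 10 genes, with 0% of all genes called, and 0 of the 10 had an unadjusted p below 0.05. The interval of the interaction was wide, from -1.14 to 0.78 on the log2 scale for *Acly* and from -1.04 to 0.20 for *Srebf1*.

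Because LL and PP were each measured with and without GKA, both treatments were also averaged in 1 fit of all 6 groups. This contrast was chosen after the data had been seen, and it uses the same mice as both comparisons above. DESeq2 was not run for it. Averaged over GKA, *Acly* and *Elovl6* were DEGs, so that 2 of 10 genes were called against 1.71% of all genes. *Acly* fell in LL to 0.505 of its PP level, a log2 fold change of -0.99 (SE 0.24) with an edgeR adjusted p of 0.0105. *Elovl6* fell to 0.555 of its PP level (-0.85, SE 0.24) with an edgeR adjusted p of 0.029. The 8 enzymes and *Thrsp* varied together between mice, as given further on, so that counts of them are not independent results in any comparison. At an unadjusted p below 0.05 there were 6 genes of 10 lower, against 8.23% of all genes. The further 4 were *Fasn* (-0.75, SE 0.27), *Acaca* (-0.55, SE 0.19), *Me1* (-0.53, SE 0.22) and *Elovl5* (-0.37, SE 0.14), with edgeR adjusted p from 0.0934 to 0.178. *Scd1* (-0.37, SE 0.20), *Thrsp* (-0.44, SE 0.28), *Acacb* (-0.14, SE 0.17) and *Srebf1* (0.24, SE 0.16) did not pass at either level. The call of *Elovl6* was lost when PP mouse 2, PP mouse 6, PP + GKA mouse 16 or PP + GKA mouse 18 was left out, with an edgeR adjusted p of 0.0534, 0.0733, 0.0669 and 0.062. *Acaca* gained a call without LL mouse 42 (adjusted p 0.0435). The call of *Acly* was kept without any 1 of the 39 mice. Both calls were lost when a circadian clock component or average transcript length entered the fit, as given further on.

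**Figure D2:**
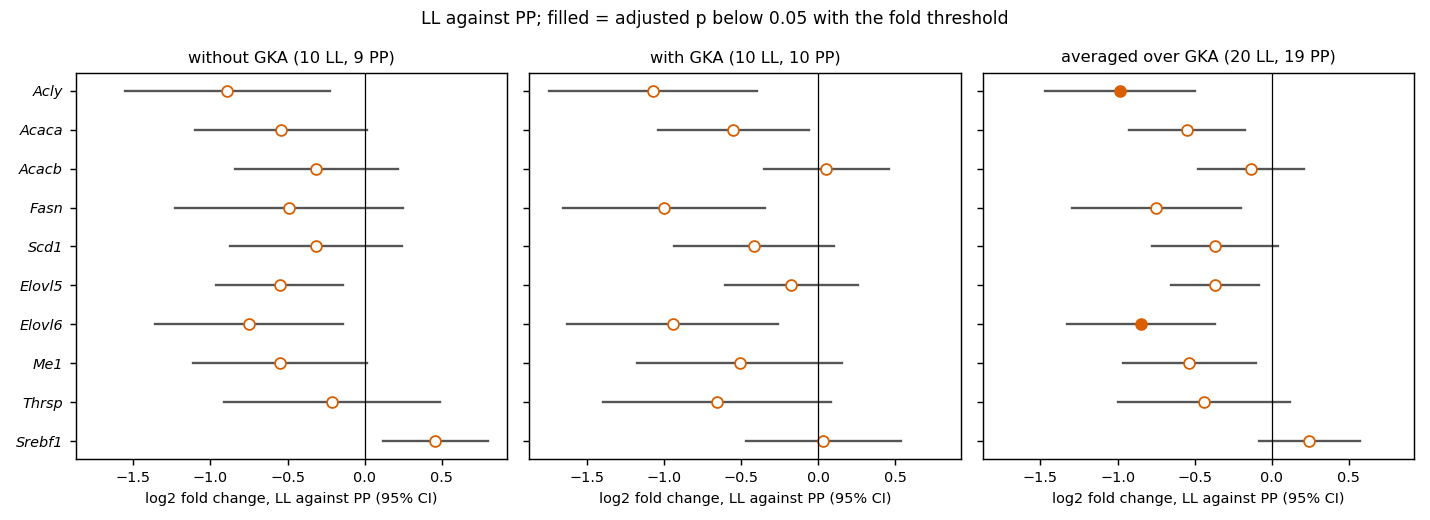
Log2 fold change of LL against PP for the 10 genes with its 95% confidence interval (horizontal axis), without GKA, with GKA and averaged over both. Filled points passed the DEG thresholds, which only *Acly* (-0.99) and *Elovl6* (-0.85) did in the averaged contrast, and *Srebf1* lies to the right of 0 in all 3 panels, at 0.46, 0.03 and 0.24.

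Heterozygous mice were compared with each homozygote. Of PL against PP without GKA, 0 of the 10 genes were DEGs by edgeR and by DESeq2 (0.151% of all genes by edgeR). In edgeR 2 of 10 were lower at an unadjusted p below 0.05, against 5.02% of all genes. These were *Elovl6* (log2 fold change -0.83, SE 0.37) and *Elovl5* (-0.47, SE 0.17). In DESeq2 3 passed that level in either direction, with no share of all genes to set beside them. With GKA 0 of 10 were DEGs by either tool, with 0% of all genes being DEGs by edgeR, and 0 of 10 had an unadjusted p below 0.05 by edgeR and 1 by DESeq2. *Acacb* had a log2 fold change of 0.50 there (SE 0.24, edgeR adjusted p 0.627). For LL against PL without GKA, 0 of 10 were DEGs by either tool (0.00942% of all genes by edgeR), and *Acacb* (-0.47, SE 0.22) was the 1 gene lower at an unadjusted p below 0.05 by edgeR, against 2.56% of all genes. With GKA 0 of 10 were DEGs by either tool (0% of all genes by edgeR), with 2 lower at that level, *Acly* (-0.63, SE 0.25) and *Me1* (-0.57, SE 0.26), against 4.8% of all genes. DESeq2 likewise had 1 and 2 genes at that level in these comparisons. Averaged over GKA, PL against PP gave 0 DEGs among the 10 (1% of all genes) and 3 genes lower at an unadjusted p below 0.05 (7.27% of all genes), which were *Elovl6* (-0.72, SE 0.25), *Acaca* (-0.51, SE 0.20) and *Elovl5* (-0.34, SE 0.15). LL against PL averaged over GKA gave 0 DEGs (0.314% of all genes) and 3 lower genes (4.17% of all genes), *Acly* (-0.52, SE 0.25), *Me1* (-0.47, SE 0.23) and *Acacb* (-0.46, SE 0.18). The test for any difference among the 6 groups called 0 of the 10 genes, against 1.88% of all genes, and 6 of 10 had an unadjusted p below 0.05, against 12.7% of all genes. The smallest edgeR adjusted p-values were 0.0867 for *Acly* and 0.151 for *Elovl6*.

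The comparison of mice with and without GKA asks whether activating GK moves the lipogenic genes. No gene of the 10 was a DEG in PP, PL or LL mice by edgeR, where 0% of all genes were DEGs in each genotype, nor by DESeq2. None had an unadjusted p below 0.05 by edgeR, and by DESeq2 0, 1 and 1 of the 10 did in PP, PL and LL. The log2 fold changes by GKA were above 0 for 9 of 10 genes in PP, 9 of 10 in PL and 7 of 10 in LL, with medians of 0.21, 0.40 and 0.16. The intervals were wide, for example from -0.37 to 1.05 for *Fasn* in PP. In LL, *Srebf1* was at -0.36 (SE 0.24) and *Thrsp* at -0.32 (SE 0.32), with edgeR adjusted p-values of 0.866 and 0.921. Averaged over genotypes, 0 of 10 were DEGs (0% of all genes), and *Me1* was the 1 gene higher at an unadjusted p below 0.05 (log2 fold change 0.40, SE 0.18, edgeR adjusted p 0.898), against 2.68% of all genes. The interaction of GKA with PL genotype called 0 of 10 genes and 0% of all genes, with 0 of 10 at an unadjusted p below 0.05.

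The 8 enzymes and *Thrsp* varied together between mice of 1 group. After each gene was centred on its group mean, all 28 pairs of enzymes correlated positively over the 55 mice, with Pearson's r from 0.642 to 0.947 and a median of 0.778. *Thrsp*, which is not an enzyme, had r from 0.39 to 0.723 with the 8 enzymes (median 0.521). These values describe mice that share their library and its scaling with both genes of a pair. The same mice stood at the ends of their groups. PP mouse 6 had the highest level of 6 of these 9 genes in its group, PP + GKA mouse 16 of 6, PL + GKA mouse 32 of 7 and LL mouse 42 of 6, while LL mouse 46 had the lowest level of 7. Group membership held between 6.28% (*Thrsp*) and 22.5% (*Acly*) of the variance of a gene on the log2 scale, so that most of the spread of every one of the 10 genes lay between mice of the same group. These shares are not corrected for the number of groups, so that some share is present even where groups do not differ.

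*Srebf1* followed this shared variation weakly. Of these 9 genes, *Thrsp* correlated with *Srebf1* (r = 0.517, permutation p = 0.00017, Benjamini-Hochberg adjusted p = 0.00153, Spearman's rho = 0.548, permutation p = 8e-05, adjusted p = 0.00072, 55 mice), and r was 0.54 without the 2 mice farthest from the median of *Srebf1*. None of the 8 enzymes passed. *Fasn* had r = 0.343 (permutation p = 0.015, adjusted p = 0.0675) and rho = 0.328, and the other 7 enzymes had r from 0.009 (*Elovl5*) to 0.214 (*Elovl6*) with adjusted p from 0.265 to 0.951 by permutation. With the clock component described next regressed out of each gene, *Fasn* (r = 0.486, adjusted p = 0.00333 by permutation) and *Acly* (r = 0.366, adjusted p = 0.0288) passed as well, and *Thrsp* had r = 0.375 (adjusted p = 0.0288).

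**Figure D3:**
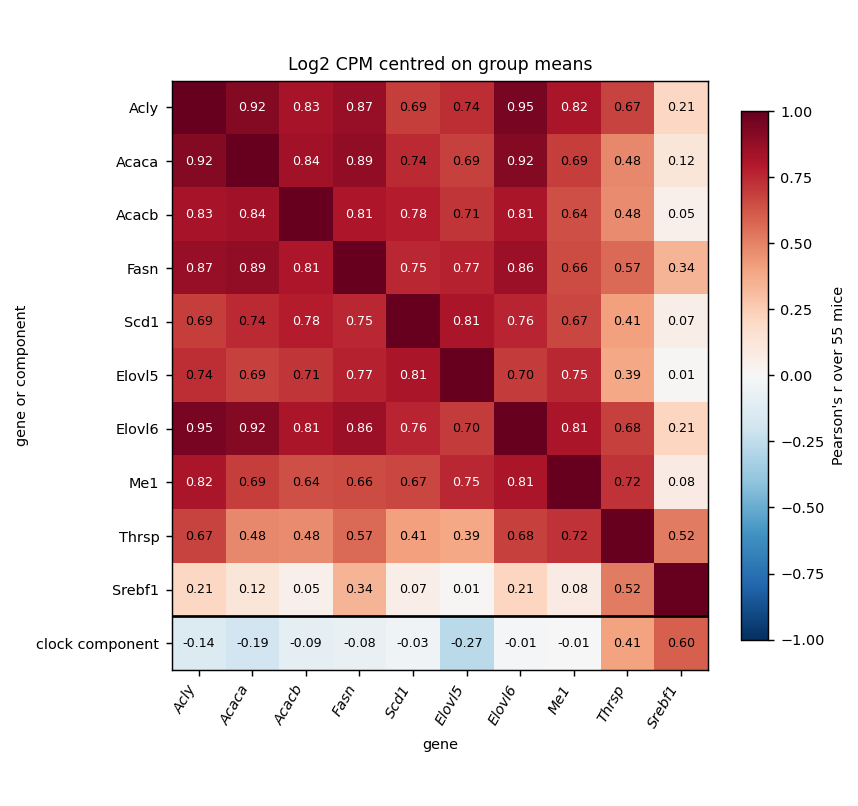
Pearson's r between the 10 genes and the clock component over 55 mice, each centred on its group mean, with the colour scale for r at the side. The 8 enzymes and *Thrsp* form 1 block of positive values (median 0.748), and the column of *Srebf1* is paler except for *Thrsp* (0.517) and the clock component (0.596).

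Clock genes moved with some of the 10 genes. The first principal component of 16 clock genes held 60.9% of their variance and increased with the clock outputs *Dbp*, *Tef* and *Per3*. Its median was -0.616 in PP, 0.826 in PL and 0.359 in LL without GKA, and -1.11, 0.518 and 0.095 with GKA, in SD units. The medians were lowest in PP, but the mice of the groups overlapped, from -1.43 to 0.132 in PP and -0.613 to 1.59 in LL without GKA and from -2.8 to 1.09 and -1.34 to 1.31 with GKA. Within groups, *Srebf1* correlated with it (r = 0.596, permutation p = 1e-05, the smallest 100000 permutations can give, adjusted p = 0.0001 over 10 genes, rho = 0.609, permutation p = 1e-05, r = 0.582 without the 2 farthest mice), as did *Thrsp* (r = 0.405, permutation p = 0.00404, adjusted p = 0.0202, rho = 0.486, permutation p = 0.00039, r = 0.441 without the 2 farthest mice). The other 8 genes had r from -0.266 (*Elovl5*) to -0.005 (*Me1*), with adjusted p from 0.286 to 0.975 by permutation. With the component as a covariate in edgeR, the LL against PP difference without GKA became 0.14 for *Fasn* and 0.07 for *Scd1*, where it had been -0.49 and -0.32, and it became -1.10 for *Thrsp*, where it had been -0.21, while *Elovl6* stayed at -0.72. Averaged over GKA, *Acly* (-0.82, edgeR adjusted p 0.164) and *Elovl6* (-0.81, edgeR adjusted p 0.163) kept most of their difference but not the call, *Thrsp* reached -0.98 (edgeR adjusted p 0.14), and *Srebf1* turned from 0.24 to -0.21. Genotype and the component overlap in part in these groups, and the part of sampling time in the differences was not tested.

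**Figure D4:**
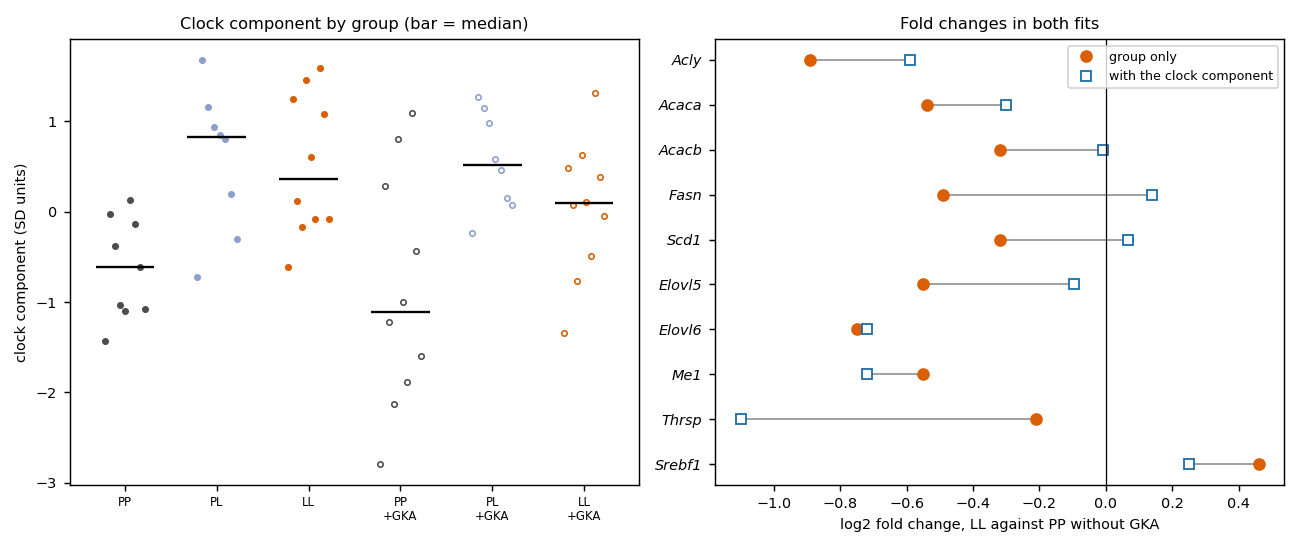
Left, clock component in SD units by group, with 1 dot per mouse (filled without GKA, open with GKA) and a bar at the median, which is lowest in PP (-0.616) and PP + GKA (-1.11). Right, log2 fold change of LL against PP without GKA for the 10 genes with group alone (circles) and with the component as a covariate (squares), which moves *Fasn* to 0.14 and *Thrsp* to -1.10.

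*Srebf1* has several annotated starts, and its reads were divided among them by the estimates for each transcript. The transcript Srebf1-201, which starts at position 60111468 of chromosome 11 on the minus strand, held a median of 52.9% of *Srebf1* reads (7.93% to 82.3%), Srebf1-207 and 1 more transcript, which start at 60101291, held 23.3%, Srebf1-203 held 17.8% and Srebf1-204 held 2.7%. The share of Srebf1-201 was 58.4% ± 10.4 (SD, n = 9) in PP, 44.9% ± 14.3 (n = 8) in PL and 51.0% ± 16.2 (n = 10) in LL. With GKA it was 45.3% ± 18.3 (n = 10) in PP, 41.8% ± 29.0 (n = 8) in PL and 55.6% ± 13.0 (n = 10) in LL. None of the 9 comparisons passed an adjusted p of 0.05, and the smallest p was 0.0384 (PL against PP without GKA, two-sided exact permutation test, adjusted p = 0.342). By share of TPM, which divides reads by effective length, the same start held far less of *Srebf1*, with group means from 11.8% (PL) to 20.9% (PL + GKA). How reads that fit several transcripts are split is an estimate, and the average effective length assigned to *Srebf1* ran from 128 to 3040 bases between mice.

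**Figure D5:**
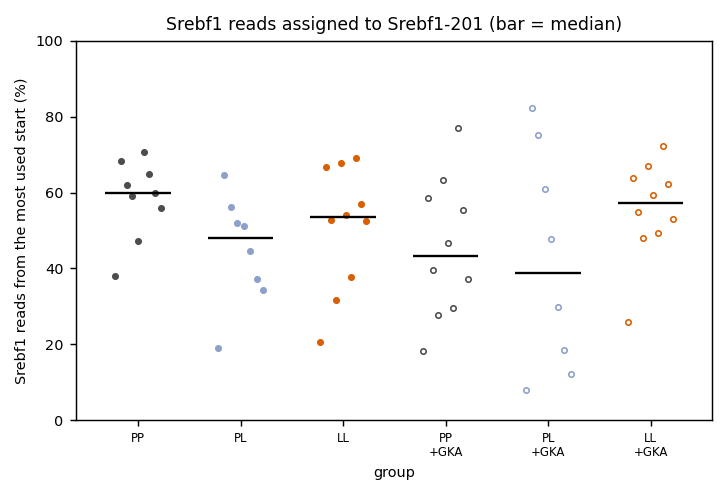
Share of *Srebf1* reads (percent) assigned to the Srebf1-201 start by group, with 1 dot per mouse and a bar at the median. The groups overlap throughout, from 7.93% to 82.3%, and the PL + GKA mice are the most spread (SD 29.0).

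Since the enzymes moved together, the 250 bases before the start of the most-read transcript of each gene were read from the mouse genome (GRCm39, starts from GENCODE vM39). They were searched on both strands for the core of a sterol regulatory element (TCACNCCAC), the E-box CACGTG and CCAAT, the box bound by NF-Y. CCAAT was in the windows of *Fasn* and *Scd1*, that is 2 of 10, against 36.5% of 21770 promoters of this length. For *Srebf1* only the window of Srebf1-201 is counted here. Among its other starts, CCAAT began 36 bases before Srebf1-207 and 166 bases before Srebf1-204. The sterol element core was in 0 of 10 windows (1.12% of promoters) and CACGTG in 0 of 10 (6.26%). At shares this low, 10 windows would often hold neither. Only these exact letters within 250 bases were searched, so that the 0 counts do not show that a gene lacks such an element. The windows of *Acly*, *Acaca*, *Fasn*, *Scd1*, *Elovl5* and *Srebf1* lie within the annotated bounds of the gene. That of *Acaca* lies farthest inside, since the gene begins at 84020476 and Acaca-201 at 84086264. The windows of the pair of genes called in the averaged contrast and of the pair with CCAAT are shown with that of Srebf1-201, 5′ to 3′ on the gene's strand, with capitals for CCAAT or its complement. They lie at chr11:100418827-100419076 (minus strand) for *Acly*, chr3:129325766-129326015 (plus strand) for *Elovl6*, chr11:120715403-120715652 (minus strand) for *Fasn*, chr19:44396341-44396590 (minus strand) for *Scd1* and chr11:60111469-60111718 (minus strand) for *Srebf1*, each directly before the first exon of the transcript.
Acly: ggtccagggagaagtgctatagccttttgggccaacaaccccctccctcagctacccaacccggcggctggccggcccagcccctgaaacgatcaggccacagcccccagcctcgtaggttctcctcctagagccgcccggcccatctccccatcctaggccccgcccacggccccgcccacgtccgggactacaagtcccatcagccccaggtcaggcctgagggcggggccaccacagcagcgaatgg
Elovl6: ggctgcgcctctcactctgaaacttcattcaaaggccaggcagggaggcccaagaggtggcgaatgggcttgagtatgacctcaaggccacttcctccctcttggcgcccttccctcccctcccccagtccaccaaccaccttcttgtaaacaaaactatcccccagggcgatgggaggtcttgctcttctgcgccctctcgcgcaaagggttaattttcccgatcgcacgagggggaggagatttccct
Fasn: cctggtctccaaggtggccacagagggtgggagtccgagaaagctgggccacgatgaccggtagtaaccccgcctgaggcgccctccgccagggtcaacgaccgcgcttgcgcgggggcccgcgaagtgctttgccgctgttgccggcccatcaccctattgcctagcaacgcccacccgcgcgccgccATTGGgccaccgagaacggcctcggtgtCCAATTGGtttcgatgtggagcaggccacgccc
Scd1: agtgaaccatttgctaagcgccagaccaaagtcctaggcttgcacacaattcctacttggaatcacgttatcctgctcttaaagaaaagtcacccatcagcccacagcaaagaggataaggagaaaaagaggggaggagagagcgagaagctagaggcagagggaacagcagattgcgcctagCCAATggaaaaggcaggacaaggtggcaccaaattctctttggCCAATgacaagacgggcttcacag
Srebf1: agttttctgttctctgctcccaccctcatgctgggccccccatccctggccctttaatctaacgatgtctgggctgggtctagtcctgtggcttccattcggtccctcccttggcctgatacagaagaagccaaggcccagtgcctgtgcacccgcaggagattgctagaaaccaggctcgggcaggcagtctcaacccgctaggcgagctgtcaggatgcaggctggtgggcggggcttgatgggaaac
In *Fasn* the boxes begin 61, 33 and 30 bases before the start, those at 33 and 30 overlapping on opposite strands, and in *Scd1* they begin 67 and 24 bases before it. A match of letters is a description and does not show that a factor binds.

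The genes around the pathway were described by lists of its neighbouring steps. These lists too were chosen with earlier results of these data known, so that their counts of DEGs are not independent of those results. Of 10 genes that supply acetyl-CoA and NADPH, 0 were DEGs by edgeR and by DESeq2 for LL against PP without or with GKA, where 0.0854% and 0.239% of all genes were by edgeR. Of the 10, 3 without and 2 with GKA had an unadjusted p below 0.05 by either tool, against 11.8% and 10.4% of all genes by edgeR. There *Acss2*, acetyl-CoA synthetase, had -0.63 (SE 0.23) without GKA, *Pgd*, of the pentose phosphate pathway, -0.58 (SE 0.22) and -0.57 (SE 0.24), and *Idh1* -0.17 (SE 0.07) with GKA. Averaged over GKA, *Pgd* fell in LL against PP (-0.58, edgeR adjusted p 0.0369), where 1.71% of all genes were DEGs. This call was lost with no filter, the length offset and the clock component (edgeR adjusted p 0.0687, 0.358 and 0.114). It was also lost without any 1 of 12 of the 39 mice. *Acss2* fell in LL against PL averaged over GKA (-1.05, SE 0.20, edgeR adjusted p 0.00181), where 0.314% of all genes were DEGs. Of 12 further genes of desaturation, elongation and activation, *Acsl3*, which activates fatty acids, fell with GKA (-0.73, SE 0.12, edgeR adjusted p 0.0108), a call lost in the fit of 6 groups (0.137) and with the length offset (0.761). *Acsl3* and *Elovl3* fell in the averaged contrast of LL against PP (-0.65 and -0.82), 2 of 12 genes against 1.71% of all genes. There *Acsl3* lost its call with the length offset (edgeR adjusted p 0.189) and the clock component (0.122). *Elovl3* went to 0.016 with the clock component (edgeR adjusted p 0.983), so that its difference was gone, and lost its call with no filter (0.077), with the length offset (0.18), with PP mouse 7 kept (0.0644) and without any 1 of 19 mice. Without GKA, *Elovl3* (-1.11, SE 0.26) was not a DEG by edgeR (adjusted p 0.0888) but was by DESeq2 (adjusted p 0.00642). *Acsl5* without GKA (-0.25, SE 0.12) and *Hacd3* with GKA (0.24, SE 0.08) were not DEGs. The list medians in the averaged contrast were -0.10 and 0.00, against 0.00 for all genes.

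Among 16 genes that control SREBP, 0 of 15 tested were DEGs by edgeR for LL against PP without GKA (0.0854% of all genes) and 2 of 15 with GKA (0.239% of all genes). Without GKA 4 of the 15 had an unadjusted edgeR p below 0.05, against 11.8% of all genes. DESeq2 called 3 of 15 without GKA, *Insig1*, *Bhlhe40* and *Insig2*, and 2 of 15 with GKA. In all it called 109 and 92 genes there. With GKA, *Insig1*, which retains SREBP in the endoplasmic reticulum and is itself a target of SREBP, fell by 1.00 on the log2 scale (SE 0.14, edgeR adjusted p 0.00378), and *Bhlhe40*, a repressor with a rhythm, rose by 0.76 (SE 0.15, edgeR adjusted p 0.0295). Without GKA their log2 fold changes were -0.85 and 0.54, both with an edgeR adjusted p of 0.112, where DESeq2 gave 0.0201 and 0.0297. With GKA both calls were lost with the length offset (edgeR adjusted p 0.1 and 0.445), and that of *Bhlhe40* also with the clock component (0.0618) and without any 1 of 7 of the 20 mice. Averaged over GKA, *Insig1* (-0.93) fell and *Bhlhe40* (0.65) and *Bhlhe41* (1.26) rose in LL against PP (1.71% of all genes were DEGs). In PL against PP, also averaged, *Bhlhe41* (1.57) rose and *Insig2* (-0.60) fell (1% of all genes). In LL against PL, also averaged, *Insig1* (-0.83) fell (0.314% of all genes). The calls of *Insig1* were kept under every alternative run for the averaged contrasts, while the others were lost with the length offset (edgeR adjusted p from 0.0936 to 0.471) and with the clock component. With the clock component *Bhlhe40* had 0.39 (edgeR adjusted p 0.0694) and *Bhlhe41* 0.49 (0.394) in LL against PP, and *Bhlhe41* had 0.53 (0.427) and *Insig2* -0.11 (0.767) in PL against PP. *Bhlhe41* is also 1 of the 16 clock genes. The list median for LL against PP averaged over GKA was -0.01. Among 10 genes of ChREBP and glucose sensing, *Txnip*, a target of ChREBP, rose in LL without GKA (1.42, SE 0.27, edgeR adjusted p 0.048), a call lost under 4 alternatives and without any 1 of 15 of the 19 mice. *Klf10*, also a target, rose with GKA (1.11, SE 0.21, edgeR adjusted p 0.023), a call lost with the length offset (0.304) and without PP + GKA mouse 11 (0.0505). DESeq2 called both *Txnip* and *Klf10* in each of these comparisons. Averaged over GKA, *Txnip* (1.29), *Klf10* (0.98) and *Rgs16* (1.15) rose, while the list median was -0.05 and 1.71% of all genes were DEGs. There the call of *Txnip* was kept under every alternative run and that of *Klf10* under all but the length offset (edgeR adjusted p 0.189). *Rgs16* had 0.35 with the clock component (edgeR adjusted p 0.606) and lost its call also with no filter (0.068), with the length offset (0.0831) and without any 1 of 12 of the 39 mice. *Txnip* also rose in LL against PL (0.82), a call lost with no filter (edgeR adjusted p 0.0733) and the length offset (0.225). The test for any difference among the groups called *Acss2*, *Insig1*, *Bhlhe40*, *Bhlhe41*, *Klf10* and *Txnip* among the genes named here, and 1.88% of all genes.

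Of 10 genes of triglyceride synthesis and storage linked to SREBP1, 1 was an edgeR DEG for LL against PP with GKA, against 0.239% of all genes. This was *Gpam*, which makes the first step of glycerolipid synthesis and fell (-0.95, SE 0.20, edgeR adjusted p 0.0424). This call was lost with no filter (0.0534), in the fit of 6 groups (0.0847), with the length offset (0.181), with the clock component (0.0989) and without any 1 of 13 of the 20 mice. *Gpam* (-0.72) and *Pnpla3* (-1.36) fell in the averaged contrast, where the list median was -0.16 and 1.71% of all genes were DEGs. Both calls were lost with the length offset (edgeR adjusted p 0.0718 and 0.298) and the clock component (0.175 and 0.352), and that of *Pnpla3* also with no filter (0.0808) and without any 1 of 24 of the 39 mice. *Pnpla3* had -1.52 (SE 0.56) without and -1.19 (SE 0.42) with GKA and was not a DEG in either. Of 8 genes of malonyl-CoA removal and fatty acid oxidation, 0 were DEGs by edgeR in any comparison or by DESeq2 in the 9 pairwise ones. All 8 had a log2 fold change above 0 in the averaged contrast (median 0.13) and 3 had an unadjusted edgeR p below 0.05, against 7.88% of all genes that were higher at that level. *Cpt1a*, the carnitine palmitoyltransferase that malonyl-CoA inhibits, had 0.24 (SE 0.11) without and 0.40 (SE 0.11) with GKA, and *Mlycd*, malonyl-CoA decarboxylase, 0.20 (SE 0.09) without GKA.

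Genes outside the 10 were ranked by the mean of their Pearson's r with the 10 genes, over 55 mice centred on group means. The ranking started from 11477 genes, and genes with provisional symbols, such as Gm and Rik names, were left out. The 8 genes at its top were *Pgd* (0.724), *Gpam* (0.704), *Pnpla3* (0.683), *Pnpla5* (0.681), *Tkt* (0.678), *Acsl5* (0.663), *A4gnt* (0.654) and *Dlat* (0.639). The r of each with *Srebf1* alone was lower, from 0.012 (*Acsl5*) to 0.387 (*A4gnt*).

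The genes lie on 6 chromosomes of GRCm39. *Acly* (chr11:100367165-100440756), *Acaca* (chr11:84020476-84292477), *Fasn* (chr11:120696672-120715995) and *Srebf1* (chr11:60089913-60113407) share chromosome 11, and *Elovl5* and *Me1* share chromosome 9. Among protein-coding genes, *Acly* overlaps *Odad4*, *Acaca* overlaps *Tada2a*, *Me1* overlaps *Rwdd2a* and *Srebf1* overlaps *Rai1*, in each case on the opposite strand. Among non-coding genes, *Acacb* overlaps *Gm71510*, *Elovl6* overlaps *Gm35986* and *Me1* overlaps *A330041J22Rik*, again on the opposite strand. *Srebf1* also overlaps the microRNA gene *Mir6922* on the same strand. The strandedness of the libraries was not given in the sources used here, so that reads from the overlapping stretches cannot be told apart.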

How the data were processed

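Liver RNA of 56 male mice was sequenced. The authors kept samples with an RNA integrity number above 6, trimmed nothing and ran Salmon (1.4.0 in the submitters' processing notes) on GENCODE M26 transcripts of GRCm39. The deposited estimated counts (NumReads) per transcript are not normalised, and the deposited TPM values are scaled by effective length to the same total in each mouse. Reads of a gene were the sum of the estimated counts of its transcripts in GENCODE vM39, which matched 98.8% of 139225 transcripts and at least 99.8% of reads, rounded to whole numbers. TPM was used only for the start shares as an alternative.

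Genes were kept with filterByExpr, scaled by TMM and tested with edgeR 4.0.16 (quasi-likelihood, R 4.3.3) in pairwise fits, with Benjamini-Hochberg adjustment over all genes tested. CPM follow TMM scaling, with 2 as prior count on the log2 scale. Correlations were tested by 100000 permutations of mice within groups, with ranks from SciPy 1.17.1. Start shares were tested by exact enumeration or 100000 permutations. The scripts were tested on simulated data. Alternatives were DESeq2 1.42.0, other size factors, no filter, 1 fit of 6 groups, an offset for average transcript length, the clock component as covariate, PP mouse 7 (left out by the study too) kept, and each mouse left out. DESeq2 was run for the 9 pairwise comparisons only. Each mouse was left out only for LL against PP without, with and averaged over GKA, and for LL against PL without GKA. Shares of all genes at an unadjusted p below 0.05 were taken from edgeR only. The contrasts averaged over GKA or genotype were added after the data had been seen.

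The 10 genes and the lists around them were chosen with earlier results of these data known. All 10 are named throughout. Of the lists, genes that passed the thresholds are named, and for LL against PP those among the 2 smallest unadjusted p-values below 0.05 in a list, except that 1 gene of the lists is not reported here. Each mouse is 1 sample, and its number pairs it with no other.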

Additional observations from a re-analysis of the deposited data

Results flagged for a closer look

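LL + GKA mouse 53 lay far below the other 9 mice of its group for 3 of the 10 genes. Its log2 CPM was 12.46 for *Scd1*, where the next mouse had 13.89, a gap of 0.661 of the range of the group. For *Elovl5* it was 8.4 against 9.63 in the next mouse (0.724 of the range), and for *Me1* 6.41 against 7.88 (0.621). A gap above 0.466 of the range is beyond Dixon's 95% critical value for 10 samples. Of 60 sets of 1 gene in 1 group, 3 passed this test, and chance passes about 1 in 20. The same mouse had the lowest level of 5 of the 9 genes other than *Srebf1* in its group and the highest of *Srebf1*, at 429.6 CPM. Without it, *Srebf1* had a log2 fold change of LL against PP with GKA of -0.16, where it was 0.03 with all mice.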

How the results depend on the processing

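The count of the 10 genes that were DEGs stayed at 0 in all 9 pairwise comparisons, in the test for any difference and in both interactions under every alternative run. Only the count for LL against PP averaged over GKA moved, from 2 to 1 (*Acly*) with no filter on low counts and to 0 both with an offset for average transcript length and with the clock component as covariate. With 1 mouse left out it ran from 1 to 3. In that contrast the length offset gave -0.93 for *Acly* (edgeR adjusted p 0.106) and -0.82 for *Elovl6* (0.189), and *Elovl6* had an adjusted p of 0.0506 with no filter. The average effective length behind this offset varied widely between mice, from 1000 to 4190 bases for *Acly* and from 1120 to 5750 bases for *Elovl6*. Among the single genes, 811 alternative log2 fold changes kept their sign and side of the threshold, 34 changed sign and 5 lost the call. The correlation with *Srebf1* passed for 3 genes in place of 1 once the clock component was regressed out.

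Values below are log2 fold changes that changed sign, none of them past the adjusted threshold. With the clock component as covariate, *Fasn* had 0.14 and *Scd1* 0.068 for LL against PP without GKA. *Acacb* had -0.25 and *Srebf1* -0.22 for PL against PP without GKA. *Fasn* had -0.11 and *Thrsp* 0.045 for LL against PL without GKA. With GKA, *Srebf1* had -0.4 for LL against PP, -0.22 for PL against PP and 0.23 for LL against PL, *Acly* 0.08 for PL against PP and *Elovl5* -0.054 for LL against PL. For GKA in LL, *Scd1* had -0.0081 and *Thrsp* 0.058. Averaged over GKA, *Srebf1* had -0.21 for LL against PP and -0.33 for PL against PP, and *Elovl3* had 0.016 for LL against PP. The interaction of GKA with LL was 0.0087 for *Acaca*. With the length offset, *Acly* had 0.014 for PL against PP without GKA and 0.0082 averaged over GKA. *Fasn* had -0.18, *Elovl6* -0.02, *Thrsp* 0.12 and *Srebf1* -1.14 for LL against PL without GKA, and *Scd1* had 0.013 with GKA. Averaged over GKA, LL against PL was 0.25 for *Scd1* and -0.6 for *Srebf1*. For GKA, *Scd1* had -0.59 in PP, and *Fasn* 0.076 and *Elovl6* -0.32 in LL. *Thrsp* for PL against PP with GKA was 0.0032 by DESeq2 and by its size factors in edgeR and 0.00085 in the fit of 6 groups. With mouse 7 kept, the interaction with LL was 0.066 for *Acaca* and 0.00024 for *Scd1*, and that with PL 0.0042 for *Fasn*. The cause of these changes was not tested.

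With 1 mouse left out, LL against PL without GKA ran from -0.056 to 0.19 for *Acaca*, -0.14 to 0.29 for *Fasn*, -0.042 to 0.17 for *Scd1*, -0.18 to 0.0031 for *Elovl5*, -0.036 to 0.31 for *Elovl6* and -0.29 to 0.15 for *Thrsp*. LL against PP with GKA ran from -0.045 to 0.13 for *Acacb* and from -0.16 to 0.13 for *Srebf1*. By share of TPM, the Srebf1-201 differences that changed sign were 1.1 percentage points for LL against PP without GKA, 1.41 for PL against PP with GKA, -0.587 for LL against PL with GKA, 9.1 for GKA in PL and -0.313 for GKA in LL.

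Over all genes, the count of DEGs depended more on the method. For LL against PP it was 9 without GKA, against 109 by DESeq2, 65 in the fit of 6 groups, 26 with mouse 7 kept, 2 with the length offset, 1 with no filter and 0 with other size factors or the clock component. With GKA it was 25, against 92 by DESeq2, 45 in the fit of 6 groups, 17 with no filter, 13 with the clock component and 0 with the length offset. Averaged over GKA it was 196, against 36 with the length offset and 74 with the clock component. Of the genes around the pathway named for that contrast, *Insig1*, *Klf10* and *Txnip* kept their call with the clock component. *Txnip* without GKA lost its call under 4 alternatives (adjusted p 0.0511 to 0.312). Group sizes of 8 to 10 mice and within-group SDs up to 0.911 limit what these comparisons can show. No paired analysis was possible because each mouse has a number of its own, shared with no mouse of another group.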
